A study of Homo sapiens with 8 samples.

Results

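Collagens, laminins and matrix glycoproteins were examined in cancer stem cells (CSCs) and cisplatin-resistant cells derived from the H460 line, an established non-small-cell lung cancer cell line. The 53 genes were listed by symbol, and a probe was assigned to a gene when the accession printed for it on the array belonged to that symbol. Of the 53 genes, 50 had a probe, and 39 had at least one probe bright enough to be tested, among 12374 genes tested in all. H460C were CSCs obtained by growing H460 cells without attachment in a defined DMEM/F12 medium with N2 supplement, albumin, EGF and basic FGF. H460R were H460 cells exposed for 72 hours to cisplatin at 0.5 µg/ml and afterwards kept without the drug, in the RPMI medium with 10% serum that was also used for H460. Each of the 8 two-colour arrays set labelled RNA of H460C or H460R against RNA of untreated H460 cells, with the dyes exchanged between the arrays of a pair, so that 2 labelled samples of each population were read on 4 arrays. Serum, growth factors and attachment differed together between H460C and the other cells, and their parts cannot be told apart. The resistant cells were not described as a single clone, and no label tied the samples to separate cultures, so the errors given here may be technical.

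The extracellular matrix outside epithelial and mesenchymal cells is built from families of secreted proteins. Fibrillar collagens form cables, type IV collagen and laminins form the sheets of the basement membrane, and nidogens, perlecan and agrin tie these sheets together. Fibrillins and fibulins build microfibrils and elastic fibres, small proteoglycans such as lumican and decorin bind collagen fibrils, and matricellular proteins are secreted regulators of attachment with little structural role.

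All values are log2 ratios to H460, so that 1 is a 2-fold higher signal and -1 a 2-fold lower signal. In each channel between 22834 and 28499 of the 41000 probes were well above background. The difference between both H460C samples did not recur when the dyes were exchanged (r = -0.0107 across 24642 probes, against 0.267 across 25745 probes in H460R), so the H460C samples were counted as 1 sample and an SD is given for H460R alone. The FDR for H460C still ranked both labelled samples and covers the spread between hybridizations. On the array of H460C replicate 1 with the CSCs in Cy5, several large ratios were smaller than on the other arrays. That array entered the check above, so the check does not show that both H460C samples are the same RNA. Of 8 epithelial markers, 5 were above background on all 8 H460 channels (KRT8, KRT18, KRT19, CLDN4 and CLDN7), and so were 4 of 7 fibroblast markers (PDGFRB, THY1, DPT and TWIST2), while 0 of 6 endothelial markers and 1 of 6 leukocyte markers (CD14) were. CDH1 was above background on 0 of the 8 H460 channels and EPCAM on 7. Of the 8 epithelial markers, 7 were above background on all H460C arrays and 4 on all H460R arrays. Of the 7 tested, 5 were higher in H460C than in H460R at a limma adjusted p of 0.05, beside 25.3% of all genes. These were EPCAM, CLDN4, KRT18, CLDN7 and CDH1, and neither EPCAM nor CDH1 was bright enough in H460. CDH1 read 0.79 in H460C and -0.02 in H460R, both against an H460 signal at background, so the size of its difference is unmeasured. Another 1, KRT19, was lower (-0.86, limma adjusted p = 0.000349), beside 24.9%. The ratios of the 7 markers ranged from -1.15 to 1.36 in H460C and from -0.71 to -0.02 in H460R. Their part in the results was not tested. The single H460 RNA was the reference of every array, so the values of H460C and H460R share it, and each population lay on a slide of its own.

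In H460C, 1 matrix gene rose and 4 fell at an FDR of 0.05 by the exact Rank Products test. COL7A1 rose, against a background of 0.719% of all genes tested, and FBN2, SRPX, LUM and FBLN1 fell, against 0.541%. In H460R, SRPX2 rose (background 0.558%) and COL6A1 and FBN2 fell (background 0.509%). FBN2 was therefore the one matrix gene that passed the test in both populations. By size alone, 12 of the 39 genes (30.8%) were at least 2-fold lower in H460C than in H460, beside 3.94% of all genes. These 12 include TGFBI and DCN, whose H460C arrays disagreed, and 10 were left when probes missing an array were dropped. A further 6 (15.4%) were at least 2-fold higher, beside 5.95%. In H460R the lower set held 3 genes (7.69%, beside 1.32%) and the higher set 6 (15.4%, beside 3.61%). The higher set includes SPP1, whose probe was saturated on all 4 H460R channels. Counting only genes at least 2-fold away on every array, 4 genes were higher (10.3%, beside 3.39%) and 7 lower (17.9%, beside 2%) in H460C, and 5 higher (12.8%, beside 1.66%) and 2 lower (5.13%, beside 0.622%) in H460R. The median ratio of the 39 genes was -0.34 in H460C and 0.18 in H460R, while the medians over all genes tested were -0.0013 and 0.0032.

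**Figure D1:**
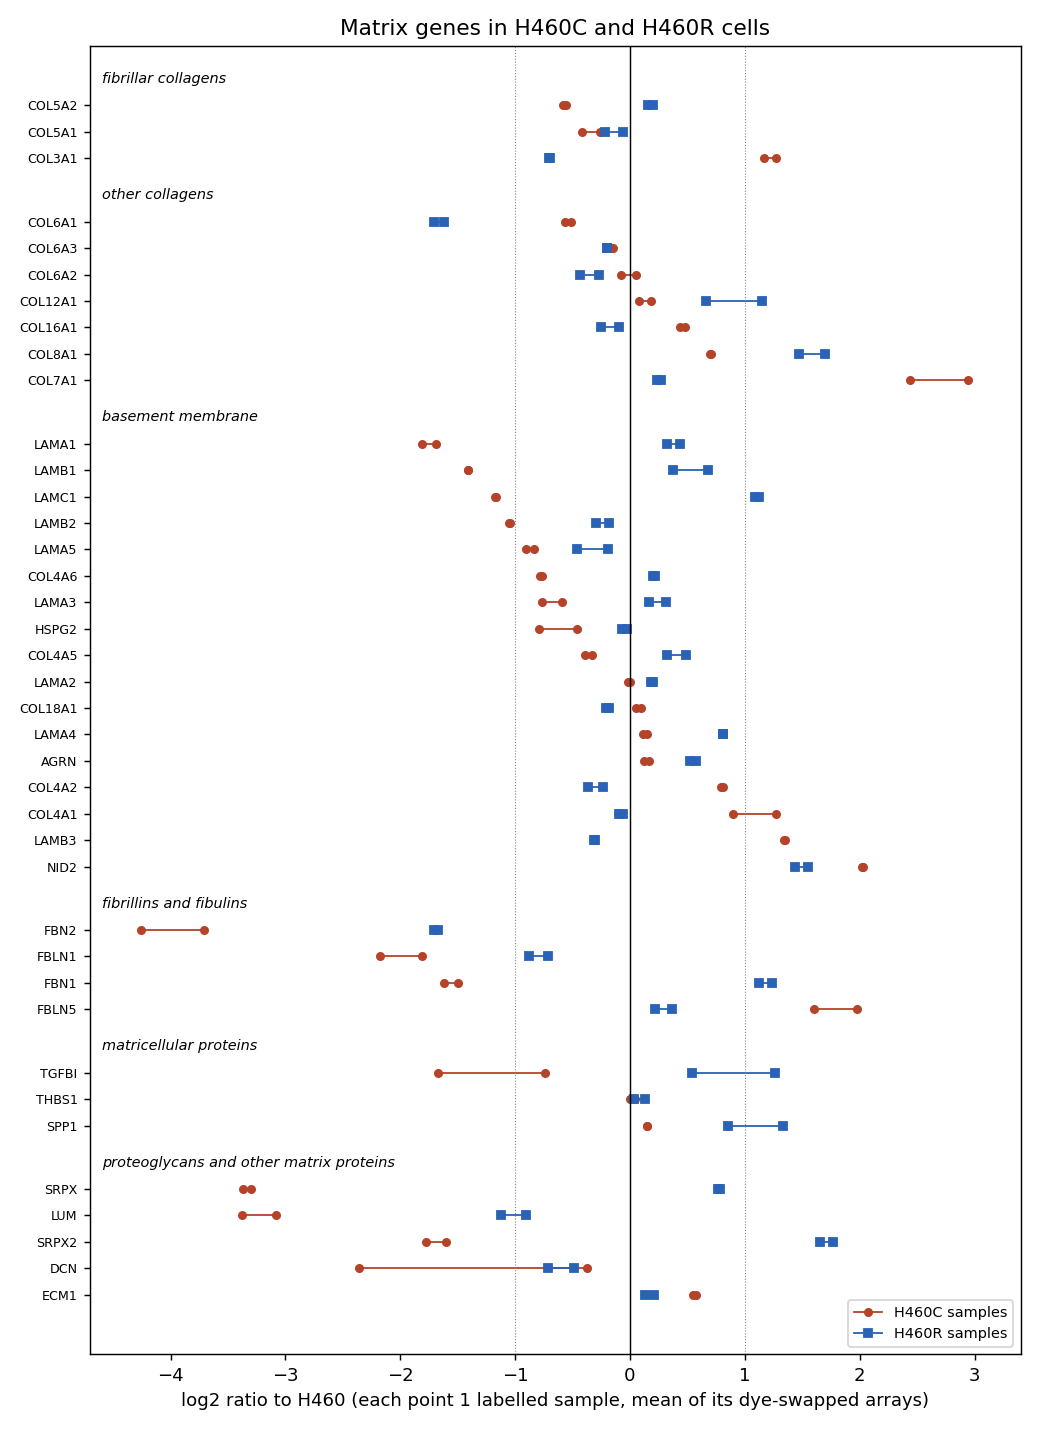
The log2 ratio to H460 (x axis) of the 39 matrix genes (y axis), grouped by role, with 1 point for each labelled sample of H460C (circles) and H460R (squares) and a line joining both samples of a population; dotted lines mark a 2-fold difference. FBN2, SRPX and LUM lay farthest to the left in H460C, between -4.26 and -3.08, and COL7A1 farthest to the right, at 2.44 and 2.95.

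Among the fibrillar collagens, 3 of 6 genes were measured, with ratios of both signs in H460C. COL3A1, the chain of type III collagen, read 1.44 and 0.89 on the arrays of H460C replicate 1 and 1.38 and 1.16 on those of replicate 2. In H460R it read -0.73, -0.67, -0.63 and -0.77. The populations did not overlap and lay on opposite sides of H460, but neither mean passed the exact Rank Products test (1.22, FDR = 0.249 in H460C; -0.70 ± 0.00058 (SD, n = 2), FDR = 0.337 in H460R). A pair of dimmer COL3A1 probes, each above background on 3 of 8 H460 channels, gave 0.36 and 0.61 in H460C. COL5A1 and COL5A2, chains of type V collagen, had means of -0.34 and -0.57 in H460C and of -0.14 and 0.18 in H460R. For COL5A2 the 3 probes disagreed, with -0.57, -0.79 and 0.25 in H460C and 0.18, 0.43 and 1.36 in H460R, and the brightest, given first, was saturated on 2 arrays of each population. The chains of the most common fibril, type I collagen, gave no level, since COL1A2 was above background on at most 1 of 4 arrays of H460C, on 0 of H460R and on 1 of 8 of H460, and no probe was assigned to COL1A1. COL11A1 was not above background on any array.

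The other collagens held the gene with the highest ratio in H460C. COL7A1 encodes type VII collagen, which forms the fibrils that anchor the epidermal basement membrane to the tissue below. It read 3.11 and 1.78 on the arrays of H460C replicate 1 and 3.10 and 2.80 on those of replicate 2, and between 0.15 and 0.38 on the 4 H460R arrays. The mean of 2.69 in H460C, a 6.47-fold higher signal, passed the exact Rank Products test (FDR = 0.0256), with H460 above background on 7 of 8 channels, and that of 0.25 ± 0.022 (SD, n = 2) in H460R did not (FDR = 0.984). COL8A1, a short-chain network collagen, had higher ratios in H460R, between 1.15 and 1.85 on the 4 arrays, than in H460C, between 0.53 and 0.86. Its H460R mean of 1.58 ± 0.158 (SD, n = 2) had an FDR of 0.072 in the exact test, on the other side of the threshold. Type VI collagen, a beaded filament assembled from different chains, differed by chain. COL6A1 read -1.82, -1.58, -1.79 and -1.45 in H460R, a 3.16-fold lower mean (-1.66 ± 0.0573, SD, n = 2, exact Rank Products FDR = 0.0141), and between -0.66 and -0.40 in H460C. All H460C arrays lay above all H460R arrays for this gene. COL6A3 lay near H460, at -0.15 in H460C and -0.20 in H460R, and the tested probe of COL6A2 was not above background on any H460R array, where a dimmer probe was above it on 1. COL12A1, which decorates collagen fibrils, was not above background on any of the 8 H460 channels but was on all 4 of H460R. Its H460R arrays read between 0.46 and 1.21, a 1.87-fold higher mean (exact Rank Products FDR = 0.335). With H460 at background, the size of this difference is unmeasured. COL16A1 read 0.46 in H460C and -0.17 in H460R. COL17A1, the hemidesmosomal collagen, was not above background on any array, and COL13A1 had no assigned probe.

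**Figure D2:**
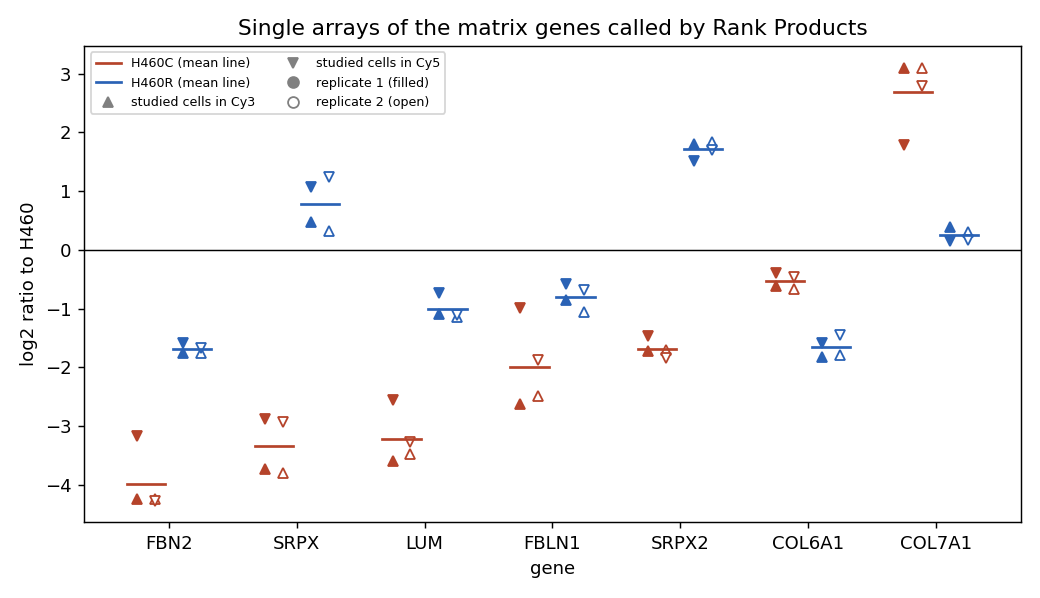
The log2 ratio to H460 (y axis) on every array for the 7 matrix genes that passed Rank Products in either population (x axis), with H460C in red and H460R in blue, replicate 1 filled and replicate 2 open, the triangle pointing up where the studied cells were in Cy3 and down where they were in Cy5, and a line at the mean. The H460C replicate 1 array in Cy5 lay nearest to 0 for COL7A1 (1.78) and FBN2 (-3.17), and SRPX and SRPX2 lay below 0 on all H460C arrays and above 0 on all H460R arrays.

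Type IV collagen, the network of every basement membrane, is encoded by paired genes that start head to head and are transcribed away from each other. COL4A1 and COL4A2 were higher in H460C than in H460R, and COL4A5 and COL4A6 were lower. COL4A1 read 0.98, 0.82, 1.03 and 1.51 on the H460C arrays and between -0.32 and 0.20 on the H460R arrays. COL4A2 read between 0.76 and 0.86 in H460C and between -0.38 and -0.17 in H460R. The H460C arrays lay above the H460R arrays for both genes, with limma differences of 1.16 ± 0.093 (SE, adjusted p = 9.23e-05) and 1.10 ± 0.101 (SE, adjusted p = 0.000173). For COL4A5 and COL4A6 the order was turned, with H460C means of -0.36 and -0.78 against H460R means of 0.41 ± 0.119 and 0.21 ± 0.0142 (SD, n = 2). The limma differences were -0.77 ± 0.107 (SE, adjusted p = 0.00114) and -0.98 ± 0.0925 (SE, adjusted p = 0.000193). The third pair, which lay outside the list of 53 genes, read 0.29 (COL4A3) and 1.06 (COL4A4) in H460C and -0.05 and 0.09 in H460R. None of the 4 listed chains passed the exact Rank Products test against H460, where their FDR lay between 0.299 and 0.814 in H460C and at 0.804 or above in H460R.

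Because both genes of a pair share the stretch between their starts, these sequences are shown for the pairs on the list of 53 genes, from the RefSeq promoter table on GRCh38.p14, on the plus strand. The starts of COL4A1 and COL4A2 are 126 bases apart, at chr13:110307158-110307283, and the whole stretch is given. The starts of COL4A6 and COL4A5 are 379 bases apart, and the 250 bases before the COL4A5 start are given, at chrX:108439588-108439837. Capitals mark CCAAT boxes (CCAAT) and GC boxes (GGGCGG) on either strand.
COL4A1 and COL4A2: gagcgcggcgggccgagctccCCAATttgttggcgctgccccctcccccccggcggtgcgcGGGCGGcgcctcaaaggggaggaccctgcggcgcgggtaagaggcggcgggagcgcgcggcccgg
COL4A6 and COL4A5: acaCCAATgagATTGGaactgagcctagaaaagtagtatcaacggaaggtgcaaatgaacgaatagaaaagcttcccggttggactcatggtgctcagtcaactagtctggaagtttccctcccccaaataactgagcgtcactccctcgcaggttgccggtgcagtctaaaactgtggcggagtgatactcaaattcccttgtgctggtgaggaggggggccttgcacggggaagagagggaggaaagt
The stretch between COL4A1 and COL4A2 was 80.2% G or C and held 1 GC box and 1 CCAAT box, which 34.6% and 21.1% of all promoter windows of that length also hold. The stretch before COL4A5 was 51.2% G or C and held 2 CCAAT boxes, as a match to CCAAT occurs in 32% of windows of 250 bases, and no GC box, which 42.6% hold. These matches describe the letters only.

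Laminins are trimers of an alpha, a beta and a gamma chain, and the chains of the trimer found in early embryonic basement membranes, LAMA1, LAMB1 and LAMC1, were all more than 2-fold lower in H460C than in H460. LAMA1 read -1.41, -1.96, -1.46 and -2.17 on the H460C arrays, LAMB1 read between -1.72 and -1.10, and LAMC1 between -1.36 and -0.97. In H460R the means were 0.38 ± 0.0808, 0.53 ± 0.217 and 1.11 ± 0.0226 (SD, n = 2). No array of H460C overlapped with an array of H460R for any of the 3 chains, although LAMA1 in H460R depended on the dye, at 0.87 and 0.89 in Cy3 and at -0.0077 and -0.25 in Cy5. The means of -1.75, -1.41 and -1.17 in H460C had FDR values of 0.0676, 0.125 and 0.186 in the exact Rank Products test, so none passed it. The differences between H460C and H460R were -2.12 ± 0.0994, -1.94 ± 0.135 and -2.28 ± 0.0928 (SE), with limma adjusted p-values of 9.49e-06, 5.05e-05 and 5.25e-06. All 4 LAMA1 probes were below H460 in H460C, between -1.80 and -1.08.

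LAMA3 and LAMB3, chains of a laminin that anchors epithelial cells, had ratios of opposite sign in H460C. LAMB3 read between 1.31 and 1.40 on the H460C arrays and between -0.39 and -0.22 on the H460R arrays, a limma difference of 1.66 ± 0.0923 (SE, adjusted p = 1.92e-05). LAMA3 lay on the other side of H460, between -1.01 and -0.31 on the H460C arrays (mean -0.68), beside 0.24 ± 0.106 (SD, n = 2) in H460R. This value came from 1 of 3 LAMA3 probes. The others, including the probe for another transcript form, were not above background on any array. LAMB3 was the one listed laminin chain at least 2-fold higher than H460 in H460C. LAMB2, the beta chain of mature basement membranes, was evenly low in H460C, between -1.11 and -0.98, and read -0.24 ± 0.0802 (SD, n = 2) in H460R. LAMA5 depended on the dye, at -0.15 and -0.17 on the H460C arrays in Cy3 and -1.52 and -1.64 on those in Cy5, and its H460R arrays ranged from -1.25 to 0.45. LAMA4 was above background on 1 of the 8 H460 channels and on all 4 of H460R. Its arrays there read between 0.80 and 0.82 against an H460 signal at background, which leaves the size of the difference unmeasured, and the ratio computed by Feature Extraction was 2.63. LAMA2 lay at -0.0074 in H460C, with 1 array left out as an outlier, and at 0.19 in H460R.

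**Figure D3:**
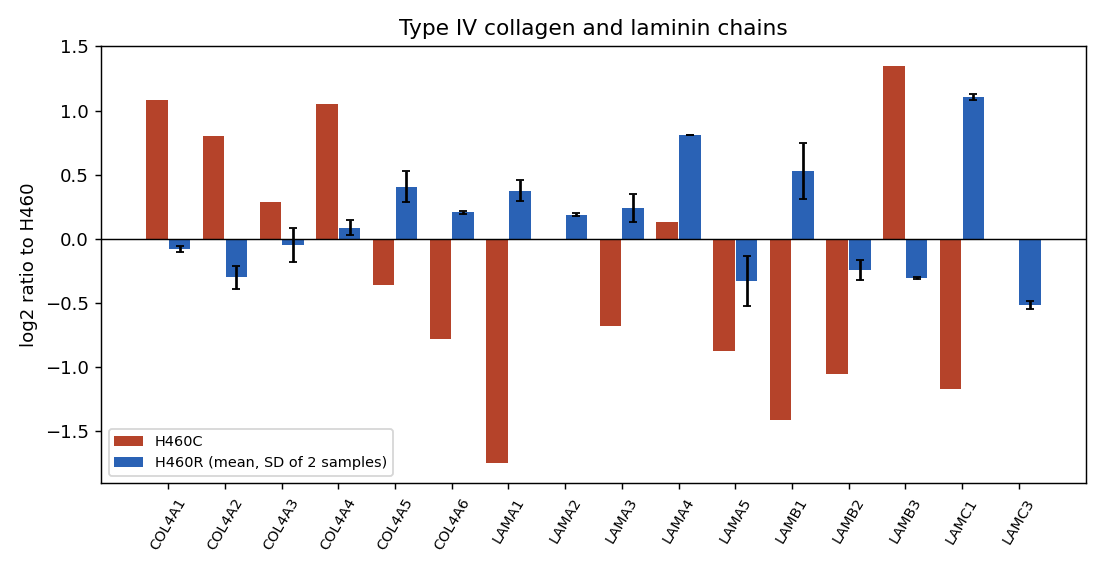
The log2 ratio to H460 (y axis) of the type IV collagen and laminin chains (x axis) in H460C (red, mean of both labelled samples counted as 1, no error) and H460R (blue, mean with the SD of 2 samples). COL4A3, COL4A4 and LAMC3 lie outside the list of 53 genes. H460 was above background on 1 of 8 channels for LAMA4 and on 3 of 8 for COL4A3. LAMB3 at 1.35 stands above LAMA3 at -0.68 in H460C, and LAMC1 reached 1.11 in H460R.

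The linkers of the basement membrane were led by NID2, nidogen 2, which connects laminin with type IV collagen. NID2 was higher than H460 in both populations, between 2.02 and 2.04 on the H460C arrays and between 1.32 and 1.60 on the H460R arrays. The arrays agreed closely and did not overlap between populations, but the means of 2.02 (4.07-fold) and 1.49 ± 0.0846 (SD, n = 2, 2.82-fold) had FDR values of 0.07 and 0.0863 in the exact Rank Products test. NID1, its paralog, was not above background on any array. HSPG2 (perlecan) read -0.63 in H460C and -0.05 in H460R, and AGRN (agrin) read 0.14 and 0.55. AGRN differed by dye in H460C, at 0.46 and 0.47 in Cy3 and -0.13 and -0.22 in Cy5. COL18A1, the collagen that carries endostatin, lay within 0.2 of H460 in both populations, at 0.07 and -0.19.

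The fibrillins and fibulins held the gene with the lowest ratio of all 39. FBN2 encodes fibrillin 2, a microfibril protein of developing tissues. It read -4.25 and -3.17 on the arrays of H460C replicate 1 and -4.24 and -4.27 on those of replicate 2, a 15.8-fold lower mean (-3.98, exact Rank Products FDR = 0.000769). In H460R it read -1.76, -1.58, -1.75 and -1.67, a 3.23-fold lower mean (-1.69 ± 0.0288, SD, n = 2, exact FDR = 0.0133). All arrays of both populations were low, and those of H460C lay below those of H460R. FBN1, fibrillin 1 of mature microfibrils, had ratios of opposite sign in the populations instead, between -1.69 and -1.31 on the H460C arrays and between 1.05 and 1.25 on the H460R arrays. Neither FBN1 mean passed the exact test against H460 (-1.56, FDR = 0.0954; 1.18 ± 0.0745, SD, n = 2, FDR = 0.18), while their limma difference was -2.74 ± 0.0983 (SE, adjusted p = 3.53e-06).

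Fibulin 1 and fibulin 5 had ratios of opposite sign in H460C. FBLN1, which binds laminin and fibronectin, read -2.62 and -0.999 on the arrays of replicate 1 and -2.48 and -1.87 on those of replicate 2. The mean of -1.99 passed the exact Rank Products test (FDR = 0.0445), but a probe for another transcript form, above background on all arrays, read -0.54 (FDR = 0.616), and with the mean over the probes, -1.26, the call was lost (FDR = 0.172). FBLN1 read -0.80 ± 0.113 (SD, n = 2, exact FDR = 0.262) in H460R. FBLN5, needed for elastic fibre assembly, read 1.85, 1.36, 1.88 and 2.07 on the H460C arrays and between 0.22 and 0.40 on the H460R arrays. Its H460C mean of 1.79 had an FDR of 0.104 in the exact test, and a dimmer FBLN5 probe read 0.55. EFEMP1 had no assigned probe.

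Matricellular genes were the least measurable, with 3 of 7 tested. THBS2, TNC and POSTN were not above background on any array, and SPARC was above background on 1 of 4 H460C, 3 of 4 H460R and 5 of 8 H460 channels. THBS1, thrombospondin 1, lay near H460, with 0.02 in H460C and 0.08 ± 0.0665 (SD, n = 2) in H460R. SPP1, osteopontin, was saturated on all 4 H460R channels, on 3 of 4 H460C channels and on 4 of 8 H460 channels. It read between 0.78 and 1.39 on the H460R arrays (exact Rank Products FDR = 0.227), and its H460C ratio turned with the dye, at 0.61 in Cy3 and -0.32 in Cy5. TGFBI, a secreted protein that binds integrins and collagens, was saturated on all 4 H460R channels, on 2 of 4 H460C channels and on 6 of 8 H460 channels. It read between 0.19 and 1.28 on the H460R arrays (exact FDR = 0.327), and on the H460C arrays 0.15, -1.64 and -1.67, with 1 array left out as an outlier (exact FDR = 0.197). On the H460R slide, H460 was saturated on 2 of 4 channels for both genes, so both channels were at the top of the scale on some arrays. These ratios of SPP1 and TGFBI therefore give no size for a difference. In the deposited value table the TGFBI mean in H460C was 0.01, so no direction is given for it there.

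Among the proteoglycans and other matrix proteins, LUM and SRPX fell in H460C. LUM, lumican, which spaces collagen fibrils, read -3.60 and -2.56 on the arrays of replicate 1 and -3.48 and -3.28 on those of replicate 2, a 9.38-fold lower mean (-3.23, exact Rank Products FDR = 0.00498). In H460R it read between -1.14 and -0.73 (mean -1.02 ± 0.15, SD, n = 2, exact FDR = 0.141). LUM was below H460 on all 8 arrays and lower in H460C. DCN, decorin, a close relative of LUM, read -0.65, -0.33, -0.89 and -0.54 in H460R. In H460C it was above background on 1 of 4 arrays, 1 array was left out as an outlier, and the remaining arrays read -0.38, -3.00 and -1.71, so that its samples of -0.38 and -2.36 disagreed. VCAN, versican, was above background on 2 of 4 H460C, 3 of 4 H460R and 5 of 8 H460 channels, MGP on at most 2 of 4 in either population and on 1 of 8 in H460, and BGN, biglycan, on 1 of 8 in H460 and on 0 in the others. ECM1 turned with the dye, at 1.12 and 1.16 on the H460C arrays in Cy3 and -0.02 and -0.0041 in Cy5.

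SRPX and SRPX2 are secreted paralogs with sushi repeats, and SRPX2 is a ligand of the urokinase receptor. Both were far below H460 in H460C and above it in H460R. SRPX read -3.73 and -2.88 on the arrays of H460C replicate 1 and -3.80 and -2.94 on those of replicate 2, a 10.1-fold lower mean (-3.34, exact Rank Products FDR = 0.00387). In H460R it read 0.47 and 0.32 in Cy3 and 1.07 and 1.24 in Cy5 (mean 0.77 ± 0.0104, SD, n = 2, exact FDR = 0.439). The SD was taken after the dyes were averaged, so it leaves out this dependence on the dye. In H460C too the Cy5 arrays of SRPX read higher, at -2.88 and -2.94. SRPX2 read between -1.84 and -1.47 on the H460C arrays (mean -1.69, exact FDR = 0.075) and 1.81, 1.51, 1.83 and 1.70 on the H460R arrays, a 3.27-fold higher mean (1.71 ± 0.078, SD, n = 2, exact FDR = 0.0441). The populations lay on opposite sides of H460 for both genes, with no overlap between arrays. The SRPX2 call in H460R was lost under 5 of the processing alternatives, where its FDR lay between 0.0507 and 0.186, with a ratio between 1.60 and 1.82.

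The promoters of this pair are shown because both genes were lower in H460C than in H460R although they lie apart on the X chromosome. Each line gives the 250 bases before the start, read along the gene's own strand, from the RefSeq promoter table on GRCh38.p14, with the minus strand of chrX:38220872-38221121 for SRPX and the plus strand of chrX:100643949-100644198 for SRPX2. Capitals mark GC boxes and CCAAT boxes as above on either strand. Matches to the AP-1 motif, spelled TGANTCA, are also in capitals, again on both strands.
SRPX: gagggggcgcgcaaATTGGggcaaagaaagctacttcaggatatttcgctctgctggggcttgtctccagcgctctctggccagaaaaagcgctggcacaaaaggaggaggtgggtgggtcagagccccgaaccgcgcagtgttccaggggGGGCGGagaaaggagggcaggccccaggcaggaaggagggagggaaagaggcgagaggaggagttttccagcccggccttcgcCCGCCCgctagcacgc
SRPX2: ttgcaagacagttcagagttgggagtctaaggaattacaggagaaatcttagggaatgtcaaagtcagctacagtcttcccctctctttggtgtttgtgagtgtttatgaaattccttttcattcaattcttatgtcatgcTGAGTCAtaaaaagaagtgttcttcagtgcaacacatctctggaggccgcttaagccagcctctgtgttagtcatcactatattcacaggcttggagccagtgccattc
The SRPX window was 64% G or C and held 2 GC boxes, 1 CCAAT box and no AP-1 motif. The SRPX2 window was 42.4% G or C and held 1 AP-1 motif, which 6.57% of all windows of 250 bases hold, and neither of the other motifs. The windows shared none of the 3 motifs.

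Set directly against each other, H460C and H460R differed in most of the 39 matrix genes tested. The list was chosen with earlier results of these data known, so its shares describe these genes only. At a limma adjusted p of 0.05, 23 of the 39 genes (59.0%) were lower in H460C, beside 24.9% of all genes tested, and 12 (30.8%) were higher, beside 25.3%. These counts include COL12A1 and LAMA4, which were bright enough in H460R alone, and COL6A2, bright enough in H460C alone. Over the 30 genes above background in all 3 populations, 20 were lower (66.7%, beside 27.5% of 10631 genes) and 9 higher (30%, beside 26.3%). With a difference of at least 2-fold added, 10 genes were lower (25.6%, beside 5.41%) and 7 were higher (17.9%, beside 4.19%). The largest differences were those of SRPX (-4.11 ± 0.0924, SE, limma adjusted p = 1.53e-06) and SRPX2 (-3.40 ± 0.0989, SE, adjusted p = 2.28e-06), then FBN1, FBN2, LAMC1 and LUM between -2.74 and -2.21. On the other side stood COL7A1 (2.44 ± 0.0928, SE, limma adjusted p = 4.23e-06), COL3A1 (1.92 ± 0.0922), LAMB3, FBLN5 (1.498 ± 0.104), COL4A1, COL6A1 (1.12 ± 0.0959) and COL4A2. All H460C arrays lay below all H460R arrays for 19 genes (48.7%, beside 19.2%) and above them for 9 (23.1%, beside 20.1%).

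By group of genes, the direct comparison gave these counts, beside 24.9% lower and 25.3% higher over all genes. Of the 17 basement membrane genes tested, 11 were lower and 5 higher in H460C, with a median difference of -0.58. The 4 fibrillins and fibulins gave 3 lower and 1 higher (median -1.75), and the 5 proteoglycans and other proteins gave 4 lower and 1 higher (median -2.21). The 7 other collagens gave 4 higher and 2 lower (median 0.34), and the median over all genes was 0.02. COL6A2, counted as higher, was bright enough in H460C alone, and its difference is the median of the other collagens. COL12A1, counted as lower there, and LAMA4, counted as lower among the basement membrane genes, were bright enough in H460R alone. Of the 3 fibrillar collagens, COL3A1 was higher and COL5A2 lower, and of the 3 matricellular genes, TGFBI and SPP1 passed as lower on saturated probes, and neither did in the deposited value table (limma adjusted p = 0.117 and 0.0617). COL5A1, COL6A3, LAMA2 and THBS1 did not pass the test, with adjusted p-values between 0.127 and 0.704. The test rested on 1 H460C ratio and 2 H460R ratios, so its error came from H460R and from the spread shared across genes, and slide and population cannot be told apart. DCN passed it (-0.77 ± 0.119, SE, limma adjusted p = 0.00183) but read 0.22 without H460C replicate 2.

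**Figure D4:**
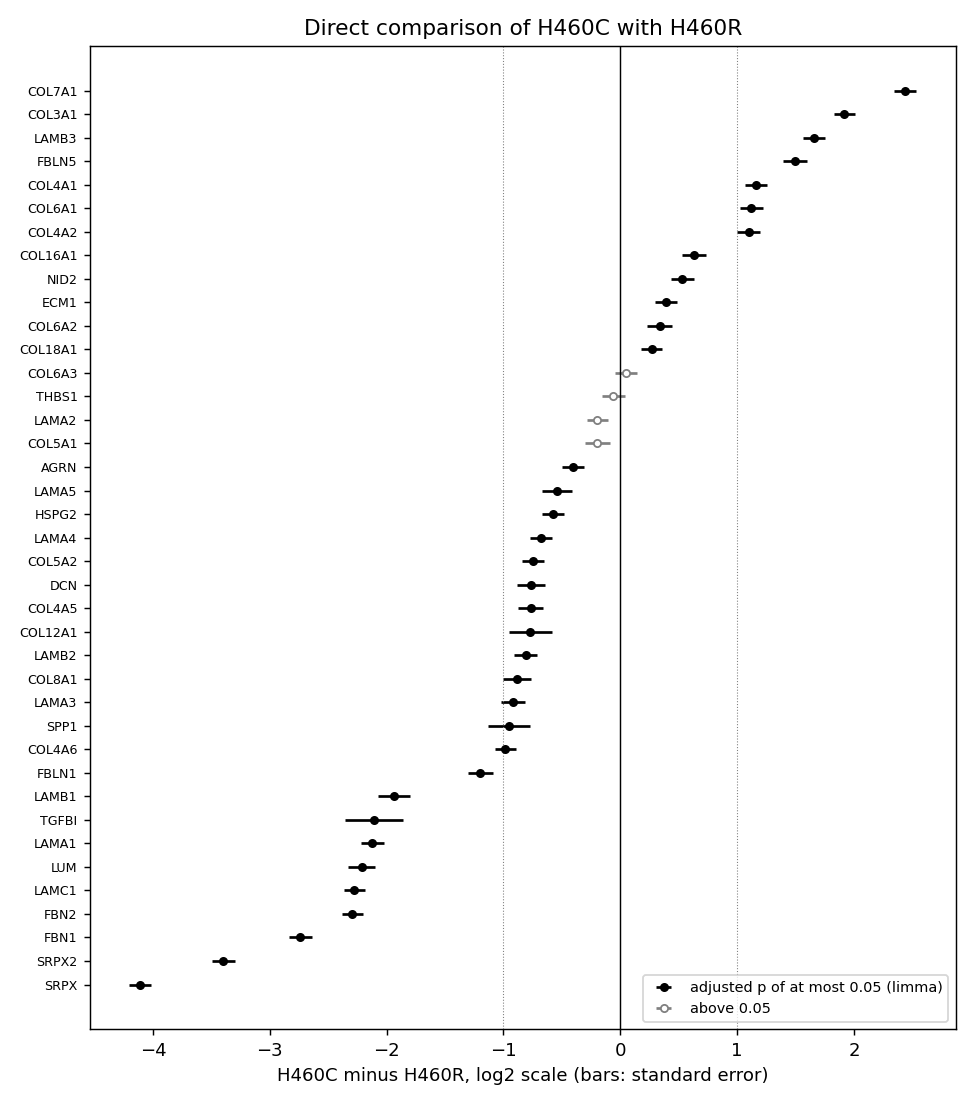
The difference in log2 ratio, H460C minus H460R (x axis), with its standard error from limma, for the 39 matrix genes (y axis) in order of size; filled points had an adjusted p of at most 0.05 and dotted lines mark a 2-fold difference. SRPX at -4.11 and COL7A1 at 2.44 are the ends of the order, and 4 genes near 0 are open.

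Matrix genes outside the 53 were read from separate lists. Among 9 tested laminin and basement membrane genes, 1 fell in H460C by the exact Rank Products test, beside 0.541% of all genes, namely PXDN, the peroxidase that crosslinks type IV collagen (-3.30, FDR = 0.0036, beside 0.22 ± 0.0887, SD, n = 2, in H460R). Of 33 other matrix genes tested, 3 fell in H460C, beside 0.541%, namely IGFBP7 (-3.55), CRIM1 (-2.12) and THBS3 (-2.02). In H460R 1 fell, beside 0.509% of all genes, namely TNXB (-1.63 ± 0.0053, SD, n = 2, exact FDR = 0.0157). The authors had already named IGFBP7 and CRIM1 as underexpressed in CSCs. These lists were chosen with such results known, so the counts describe the listed genes only. TNXB read -1.58 in H460C, where it did not pass (exact FDR = 0.0915). In the direct comparison 4 of the 9 basement membrane genes were lower in H460C and 3 higher, and 11 of the 33 other genes were lower and 4 higher, beside 24.9% and 25.3% of all genes, at a limma adjusted p of 0.05.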

How the data were processed

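The authors hybridized dye-swapped, labelled RNA to whole human genome arrays (Agilent 4x44K design) and extracted them with Feature Extraction 10.1.1.1. The deposited files hold spot and local background intensity medians, 0 or 1 marks for background, saturation and outliers, and a log10 ratio per spot (in 1 file, a score without its decimal points, divided here by 10 to the power of 9). The authors' table of log2 ratios (limma is named in the submitters' processing notes, its steps are not given in the sources used here) was matched by feature number. Its columns had medians between -0.02 and 0 and correlated with the ratios computed here at 0.952 to 0.997, which settled its log2 scale and its direction, studied cells over H460. It served as an alternative.

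Intensities were corrected with normexp (offset 50) and loess in limma 3.58.1 (R 4.3.3), with control and outlier spots left out. The 43376 spots were averaged into 41000 probes, and dye-swapped arrays into 1 ratio per sample. Where 1 array was marked as an outlier, the other stood alone. Probes were tested (26014) when a share of 0.5 or more of their spots passed the well-above-background mark on every array of H460C, of H460R or of H460. Of 25868 probes with RefSeq accessions, 23958 matched a symbol, and a gene was read from its brightest tested probe. Rank Products (exact distribution of the product of 2 ranks, both directions) and limma (two-sided) were adjusted by Benjamini-Hochberg over all probes tested, at 0.05. Percentages of all genes used the same probe rule. The Rank Products and limma steps were tested on simulated data with independent noise, without dye, slide, saturation or background effects. The number of arrays limits the precision. The replicate numbers share only a number (r = 0.206 between deviations of same-numbered samples, 2 pairs). Members and gene lists were chosen with earlier results of these data known. All 53 genes were accounted for. Outside them, genes of the lists that passed Rank Products, or partner chains of type IV collagen, were named (1 gene that this rule covers is not reported here), and the genes of the last section for their size or role, after their values were seen. Alternatives were another background correction, centring, filter, dye, probe rule, table, test, block and left-out samples, and, added after seeing the data, probes measured on all 8 arrays.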

Additional observations from a re-analysis of the deposited data

How the results depend on the processing

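Numbers of matrix genes called by the exact Rank Products test were small and moved with the processing. In H460R, where 1 gene rose (SRPX2) and 2 fell, the number that rose was 2 with the ratio computed by Feature Extraction, 0 with a normexp offset of 0, 2 without a filter, 0 with the stricter filter, 0 with the Cy3 arrays, 0 with the Cy5 arrays and 6 with limma and a 2-fold difference in place of Rank Products, and the number that fell was 1 with the Feature Extraction ratio. In H460C, where 1 rose (COL7A1) and 4 fell, 2 rose without a filter, 0 with the stricter filter and 6 with limma, and 12 fell with limma. Every gene at least 2-fold away from H460 passed limma, so the limma counts repeat the fold counts and are no second test. The genes at least 2-fold lower in H460R were 3, and 7 with the Feature Extraction ratio and 5 with an offset of 0. The FBLN1 call in H460C was lost with the Feature Extraction ratio, an offset of 0, the Cy5 arrays and the mean over probes, the COL6A1 call in H460R with the Feature Extraction ratio (FDR = 0.0534), and the SRPX2 call as given above. Calls were gained by LAMA1, NID2 (H460C) and COL8A1 (H460R) without a filter, by LAMA1 with the Cy5 arrays, and by DCN (H460C), COL12A1 and LAMA4 (H460R) with the Feature Extraction ratio. For DCN the difference H460C minus H460R was -1.76 without H460C replicate 1 and turned to 0.22 without H460C replicate 2. Group medians moved by more than the spread between samples in 68 cases and by less in 88. The other counts of matrix genes stayed within 1.5 times under the alternatives run.

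Rank Products needs both samples, so leaving one out gave ratios only. Leaving out each sample in turn gave 5 to 6 genes at least 2-fold higher and 10 to 12 lower in H460C, 6 to 7 higher and 2 to 3 lower in H460R, and, in the direct limma comparison, 11 to 12 higher and 20 to 23 lower. With H460C samples kept apart the direct comparison gave 12 higher and 23 lower, and with a replicate block 12 higher and 24 lower; the block gave COL5A1 (adjusted p = 0.0323) and LAMA2 (adjusted p = 0.0337) and removed DCN (limma adjusted p = 0.103). The remaining direct calls lost under at least one alternative were small differences (COL6A2, COL18A1, LAMA5, HSPG2, AGRN, ECM1), dim or saturated probes (COL12A1, LAMA4, TGFBI, SPP1) and DCN. Naming by a gene name column was not run, since the scanner files used here carry none. Saturation limits SPP1 and TGFBI, and signal near background limits COL12A1, LAMA4, COL6A2 and DCN.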

Other observations

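Genes that fold, process and bind matrix proteins were read in the same way. Of 21 tested genes of collagen folding and processing, 10 were lower and 4 higher in H460C than in H460R at a limma adjusted p of 0.05, beside 24.9% and 25.3% of all genes. FKBP10, a chaperone of collagen, read -1.67 in H460C and 0.90 ± 0.179 (SD, n = 2) in H460R, a limma difference of -2.56 ± 0.123 (SE, adjusted p = 1.06e-05). P4HA2, a subunit of the prolyl hydroxylase that stabilizes the collagen helix, read 1.70 and 0.39 ± 0.158, a limma difference of 1.32 ± 0.117 (SE, adjusted p = 0.000149). SERPINH1, the collagen chaperone HSP47, read -0.09 and -0.58.

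Of 11 tested matrix receptors other than integrins, 1 fell in H460C by the exact Rank Products test, beside 0.541% of all genes. This was ANTXR1, which binds collagens (-3.39, exact Rank Products FDR = 0.00349), and it read 0.06 ± 0.0731 (SD, n = 2) in H460R. The syndecans differed from each other in the direct limma comparison, with SDC4 higher in H460C (2.01 ± 0.123, SE, adjusted p = 2.85e-05) and SDC2 lower (-1.86 ± 0.0927, SE, adjusted p = 1.23e-05).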
